A study of Mus musculus with 12 samples.

Results

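The lymphocyte markers examined here are 9 genes, of which 4 mark B cells (Ighm, Cd79a, Cd79b and Ms4a1), 4 mark T cells (Cd4, Cd8a, Cd3e and Cd3g) and 1 marks natural killer (NK) and cytotoxic T cells (Nkg7). They are 9 of the 37748 genes in the deposited table. The genes were selected on the behaviour of Ighm, which moved in opposite directions in the moderate and severe models, so their differences between those models and the controls are given as description, without p-values. Of the 9 genes, 4 (Ighm, Cd79b, Cd4 and Cd8a) passed the filter on low counts and are among the 16679 genes tested. The other 5 had at most 9 counts in any mouse.

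Ighm encodes the constant region of the mu heavy chain, from which IgM antibodies are made. A resting B cell carries IgM on its surface together with the signalling proteins Cd79a and Cd79b, while an antibody-secreting cell makes a secreted form from the same gene. T cells carry the T cell receptor with the CD3 chains, and Cd4 or Cd8a serves as co-receptor for class II or class I major histocompatibility complex proteins. Healthy skeletal muscle holds few lymphocytes, and injured muscle is entered mainly by myeloid cells, with T cells following.

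The mice model facioscapulohumeral muscular dystrophy (FSHD), in which the transcription factor DUX4 is expressed in skeletal muscle. RNA of gastrocnemius muscle was sequenced from 12 mice aged 13 weeks, in 4 groups of 3. Control mice (ACTA1-MCM/+) carried a skeletal muscle ACTA1-driven, tamoxifen-inducible Cre recombinase (MerCreMer), and FLExD mice (FLExDUX4/+) carried a DUX4 transgene that needs Cre to be switched on; neither group received tamoxifen (TMX). Both models combined the 2 transgenes (FLExDUX4/+;MCM/+), and their mice received TMX intraperitoneally, 1 injection of 5 mg/kg in the moderate model and 2 injections of 10 mg/kg in the severe model, and were sampled on day 9. Recombination was mosaic in muscle fibers. Effects of TMX itself and of DUX4 cannot be told apart in these groups, since the controls received no TMX. The labels describe the FLExD mice as having mild pathology although their strain carries 1 transgene; they are treated here as the FLExD group.

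The libraries held 23796902 to 29136403 counts, at which 3 counts, used here as the floor, correspond to 0.0676 to 0.155 CPM (counts scaled to a common library total). CPM are given on library sizes multiplied by TMM factors, which correct for a few abundant genes taking a changing share of the counts. These factors ran from 0.706 to 0.760 in control and FLExD mice, from 1.06 to 1.13 in moderate mice and from 1.69 to 1.87 in severe mice. Without them, the median log2 fold change over the whole table moved from 0.04 to 0.65 in the moderate model and from 0.08 to 1.39 in the severe model. The labels were checked with Wfdc3, a DUX4 target, which had 1 to 8 counts in the 6 control and FLExD mice and 2005 to 4790 in the 6 model mice, and with Esr1, whose ligand-binding part is contained in MerCreMer, at 554 to 786 counts in FLExD mice, 8762 to 17274 in controls, 3041 to 3786 in moderate mice and 1475 to 1586 in severe mice. In CPM the severe mice (35.2 to 37.4) lay within the range of FLExD mice (27.5 to 37.9), which carry no MerCreMer. On that scale Esr1 told controls and moderate mice from FLExD mice but not severe mice. In counts, and in the deposited TPM (38.6 to 45.1 against 4.87 to 8.78), every severe mouse was above every FLExD mouse. The separation of severe from FLExD mice by Esr1 thus depended on the TMM factors. Skeletal muscle genes such as Ckm and Acta1 were abundant in every library.

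Of the 9 genes, Ighm carried most of the reads, and it is the gene on which the description turns. It lies on chr12:113418558-113422730 on the minus strand of GRCm38 and is annotated as an immunoglobulin constant-region gene. Its transcripts end in different ways. The annotated membrane transcript (1698 bases, 6 exons) joins a membrane anchor coded by separate exons, and the annotated secreted transcript (1493 bases, 4 exons) reads on through the end of exon 4. The sequences that distinguish both forms are shown because the deposited values sum over them. They are the membrane exon 5 at chr12:113418953-113419068 and the coding end of the secreted exon 4 at chr12:113420870-113420928, both from GENCODE M21 on GRCm38 and read 5′ to 3′ on the minus strand. The capitals mark the 2 bases at which the membrane form leaves exon 4.
Ighm membrane form, exon 5: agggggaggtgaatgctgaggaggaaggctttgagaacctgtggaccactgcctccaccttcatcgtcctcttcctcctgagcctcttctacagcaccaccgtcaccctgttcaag
Ighm secreted form, end of exon 4: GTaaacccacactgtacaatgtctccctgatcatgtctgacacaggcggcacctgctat

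Ighm was highest in the moderate model and lowest in the severe model. The 3 control mice had 571, 308 and 239 counts of Ighm (29.6, 14.8 and 11.3 CPM). The 3 FLExD mice had 263, 251 and 233 counts. Moderate mice had 1604, 1435 and 1680 counts (50.6, 49.5 and 54.8 CPM), all above every control. Severe mice had 147, 170 and 132 counts (3.31, 4.01 and 3.19 CPM), all below every control, and these values were far above the floor. The mean level was 18.6 ± 9.69 CPM (SD, n = 3) in controls, 12.2 ± 0.876 in FLExD mice, 51.6 ± 2.82 in the moderate model and 3.50 ± 0.442 in the severe model. FLExD values lay within the control range or just under it, whereas the other groups did not overlap. The control mouse 1127, at 571 counts, stood apart from the other controls.

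The fitted log2 fold change of Ighm against controls was 1.48 ± 0.27 (SE) in the moderate model, a 2.79-fold higher level. In the severe model it was −2.40 ± 0.29, a 5.28-fold lower level. Severe muscle had 14.7-fold less Ighm than moderate muscle (log2 fold change −3.88 ± 0.30). The direction did not depend on the scaling, since on library size alone the severe mice had 5.40 to 6.995 CPM, the controls 8.20 to 20.9 CPM and the moderate mice 53.4 to 58.1 CPM. The size did: over 21 alternative settings the log2 fold change ran from 1.19 to 2.09 in the moderate model and from −2.68 to −0.93 in the severe model. In bulk tissue, fewer cells of a type and less RNA per cell cannot be told apart.

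**Figure D1:**
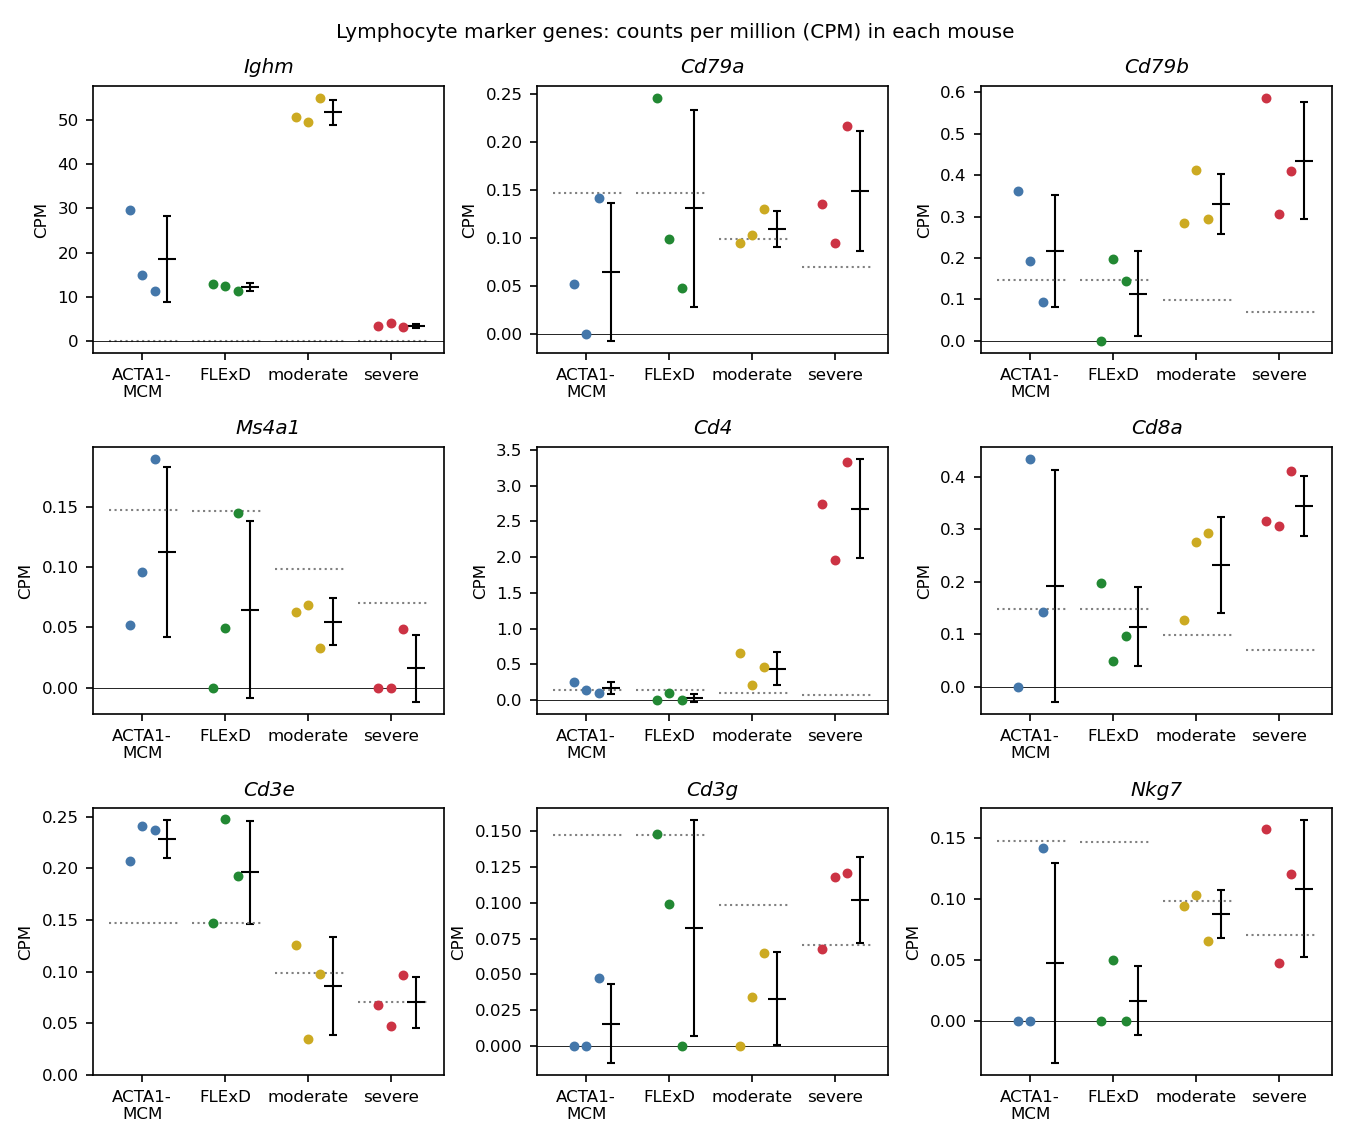
Level of each of the 9 genes in CPM (linear vertical axes that differ between panels) in the 12 mice, by group. Points are mice, the black line and bar are the mean and SD of 3 mice, and the dotted line is the mean level of 3 counts in the group's libraries. Ighm is well above that line in every mouse, at 49.5 to 54.8 CPM in the moderate model and 3.19 to 4.01 CPM in the severe model, Cd4 is well above it in the severe model, and most points of the other 7 genes are near it.

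Of the other B cell markers, Cd79a and Ms4a1 stayed near the floor while Ighm changed, and Cd79b had low counts that lay above the floor in both models. Cd79b, the Ig-beta signalling chain of the B cell receptor (chr11:106311341-106314762), had 7, 4 and 2 counts in controls and 0, 4 and 3 in FLExD mice. It had 9, 12 and 9 counts in the moderate model and 26, 13 and 17 in the severe model. Every severe mouse had more Cd79b counts than every mouse of the other groups, while in CPM the severe mice (0.307 to 0.586) overlapped the moderate mice (0.284 to 0.414) and the controls (0.0948 to 0.363). The log2 fold change against controls was 0.62 ± 0.58 (moderate) and 1.02 ± 0.54 (severe), and neither was called. On library size alone the severe value was 2.31 and was called, with the median of all genes at 1.39.

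Cd79a, the partner Ig-alpha chain (chr7:24897381-24902197), had 1, 0 and 3 counts in controls. It had 5, 2 and 1 counts in FLExD mice, 3, 3 and 4 in moderate mice and 6, 4 and 9 in severe mice. The ratio of its summed CPM-scaled counts, severe to control, was 2.27, with a 95% interval for counting error of 0.753 to 9.16. Ms4a1, which encodes the B cell surface protein CD20 (chr19:11249675-11266241), had 1, 2 and 4 counts in controls and 0, 1 and 3 in FLExD mice. It had 2, 2 and 1 counts in moderate mice and 0, 0 and 2 in severe mice, so that the severe to control ratio of 0.136 (counting interval 0.0138 to 0.716) rested on 2 counts against 7. These genes were at or near the floor in every group, and intervals of this kind leave out the spread between mice. Ms4a1 overlaps 4930526L06Rik, and Cd3e overlaps Gm48719 and Gm48720; the kit is not stated to mark strand.

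Among the T cell markers, Cd4 was the only one called in a model. Cd4 (chr6:124864692-124888221) had 5, 3 and 2 counts in controls and 0, 2 and 0 in FLExD mice. It had 21, 6 and 14 counts in the moderate model and 122, 83 and 138 in the severe model. The mean level was 0.166 ± 0.0842 CPM (SD, n = 3) in controls, 0.0330 ± 0.0572 in FLExD mice, 0.442 ± 0.228 (moderate) and 2.68 ± 0.691 (severe). The severe mice lay above all 9 others, and the moderate mice overlapped the controls (0.207 to 0.663 against 0.0948 to 0.259 CPM). The log2 fold change was 3.996 ± 0.48 in the severe model (16.0-fold) and 2.57 ± 0.38 between severe and moderate. In the moderate model it was 1.42 ± 0.60 and was not called; without moderate mouse 1308 it was 1.75 and was called.

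Cd8a (chr6:71373427-71379173) had 0.08, 9.25 and 3.40 expected counts in controls, so that on the CPM scale the severe mice overlapped them. FLExD mice had 3.84, 1 and 2 counts of Cd8a. Moderate mice had 4, 8 and 9, and severe mice 14.28, 13 and 17.03. The log2 fold change was 0.23 ± 0.70 (moderate) and 0.80 ± 0.63 (severe), neither called. Without control mouse 1246 the severe value was 2.14 and was called. In 6 of 12 libraries the Cd8a estimate was not a whole number, which RSEM gives where reads are shared with other features, whereas Ighm estimates were whole in 12 of 12.

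The CD3 chains, which every T cell needs for its receptor, stayed near the floor where Cd4 was high. Cd3e (chr9:44998740-45009627) had 4, 5 and 5 counts in controls and 3, 5 and 4 in FLExD mice. It had 4, 1 and 3 counts in moderate mice and 3, 2 and 4 in severe mice. Counts alike in libraries with different TMM factors gave 0.228 ± 0.0184 CPM in controls and 0.0705 ± 0.0248 in the severe model, a ratio of 0.307 (counting interval 0.117 to 0.761). On library size alone the ranges of Cd3e overlapped, at 0.146 to 0.173 CPM in controls and 0.0823 to 0.164 in severe mice. Cd3g (chr9:44969572-44980431) had 0, 0 and 1 counts in controls, 3, 2 and 0 in FLExD mice, 0, 1 and 2 in moderate mice and 3, 5 and 5 in severe mice. Its severe to control ratio of 6.20 rested on 13 counts against 1 and had a counting interval of 0.932 to 264. Summed with Cd3d, the CD3 chains gave 4 to 6 counts per control mouse and 9 to 12 per severe mouse, which on the CPM scale were 0.207 to 0.284 and 0.203 to 0.290.

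Nkg7, a granule membrane protein of NK and cytotoxic T cells (chr7:43437073-43438249), had 0, 0 and 3 counts in controls and 0, 1 and 0 in FLExD mice. It had 3, 3 and 2 counts in moderate mice and 7, 2 and 5 in severe mice. The severe to control ratio was 2.23, with a counting interval of 0.622 to 12.1 that includes a ratio of 1. At this depth a change of Nkg7 was not detectable.

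The calls can be read against the whole table, where a call needs an edgeR quasi-likelihood adjusted p below 0.05 with a log2 fold change of 0.5 or more in size. In the moderate model 1 of the 4 tested genes was called higher (Ighm) and 0 lower, where 24.4% of all tested genes were called higher and 17.0% lower. In the severe model 1 was called higher (Cd4) and 1 lower (Ighm), where 32.9% were called higher and 27.9% lower. Between severe and moderate, 1 was called higher (Cd4) and 1 lower (Ighm), against 17.6% and 18.8% of all genes. Nothing is read from these counts, since the contrasts chose the genes. Cd4, Cd79b and Cd8a passed the filter through their counts in the severe model.

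FLExD muscle was not used in choosing the genes and could be tested against controls. None of the 4 tested genes was called, where 1 gene in the table was called (0.00600% of those tested), and 0 of the 4 had an unadjusted p under 0.05. Ighm had a log2 fold change of −0.60 ± 0.28 (edgeR p = 0.0523, adjusted p = 1, exact permutation p = 0.3), which was −0.10 without control mouse 1127. Cd4 had a log2 fold change of −2.18 ± 1.07 (edgeR p = 0.0609, adjusted p = 1, exact permutation p = 0.2) on 2 counts against 10. Across the alternative fits with edgeR, DESeq2 and limma the unadjusted p depended on the setting. It ran from 0.00196 to 0.456 for Ighm and from 0.0129 to 0.493 for Cd4. The adjusted p in these fits was at least 0.726 for Ighm and 0.751 for Cd4. The exact permutation tests were two-sided over mice and gave p between 0.4 and 1 for the other 7 genes, where 3 against 3 mice cannot go below 0.1. DESeq2 and limma called 0 of the genes in this comparison.

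Levels of different genes were compared only as TPM, the deposited values that are per length. The group mean of Ighm was 11.9 TPM in controls, 7.78 in FLExD mice, 46.4 (moderate) and 5.38 (severe). The highest group mean among the other 8 genes was 2.37 TPM (Cd4, severe model), and the next was 0.873 TPM (Cd79b, severe model). The deposited TPM are above 0 at 0 counts, for example 0.13 to 0.16 TPM for Cd4 and 0.19 to 0.23 for Cd3g, so the order of the low genes was not read from them. In each group Ighm therefore stood above all other lymphocyte markers, by the widest margin in the moderate model.

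Ratios within a library do not depend on the scaling between libraries, and Ptprc, which encodes the leukocyte surface protein CD45, was used as the reference. Ptprc itself rose from 98 to 169 counts in controls to 756 to 1184 in the moderate model (log2 fold change 2.22 ± 0.18, edgeR adjusted p = 4.8e-07) and 2635 to 3418 in the severe model (3.29 ± 0.19, adjusted p = 4.1e-09). For every 100 Ptprc counts there were 141 to 364 Ighm counts in controls and 218 to 239 in FLExD mice. There were 135 to 190 in moderate mice and 4.30 to 6.45 in severe mice. Relative to Ptprc, moderate muscle thus overlapped controls, with a mean log2 difference of −0.65, and severe muscle was far below, with −5.61. With the sum of Ptprc, Cd53, Laptm5 and Coro1a as reference these values were −0.78 and −5.70.

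Relative to Ptprc, Cd4 was higher in every severe mouse than in every moderate mouse, and Cd3e was lower in both models than in controls. The control values of Cd4 rest on 2 to 5 counts per mouse. Cd4 had 1.18 to 3.18 counts per 100 Ptprc counts in controls, 0 to 1.77 in FLExD mice, 0.794 to 1.77 in moderate mice and 3.15 to 5.20 in severe mice. By this measure the severe mice thus narrowly overlapped the controls. Cd79b had 1.18 to 4.46 in controls, 0.760 to 1.59 in moderate mice and 0.493 to 0.761 in severe mice. Cd3e had 2.55 to 5.10 in controls, 2.73 to 4.42 in FLExD mice, 0.132 to 0.338 in moderate mice and 0.0759 to 0.151 in severe mice. For Cd3e the model mice lay below all controls by this measure, in which the reference itself had risen.

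**Figure D2:**
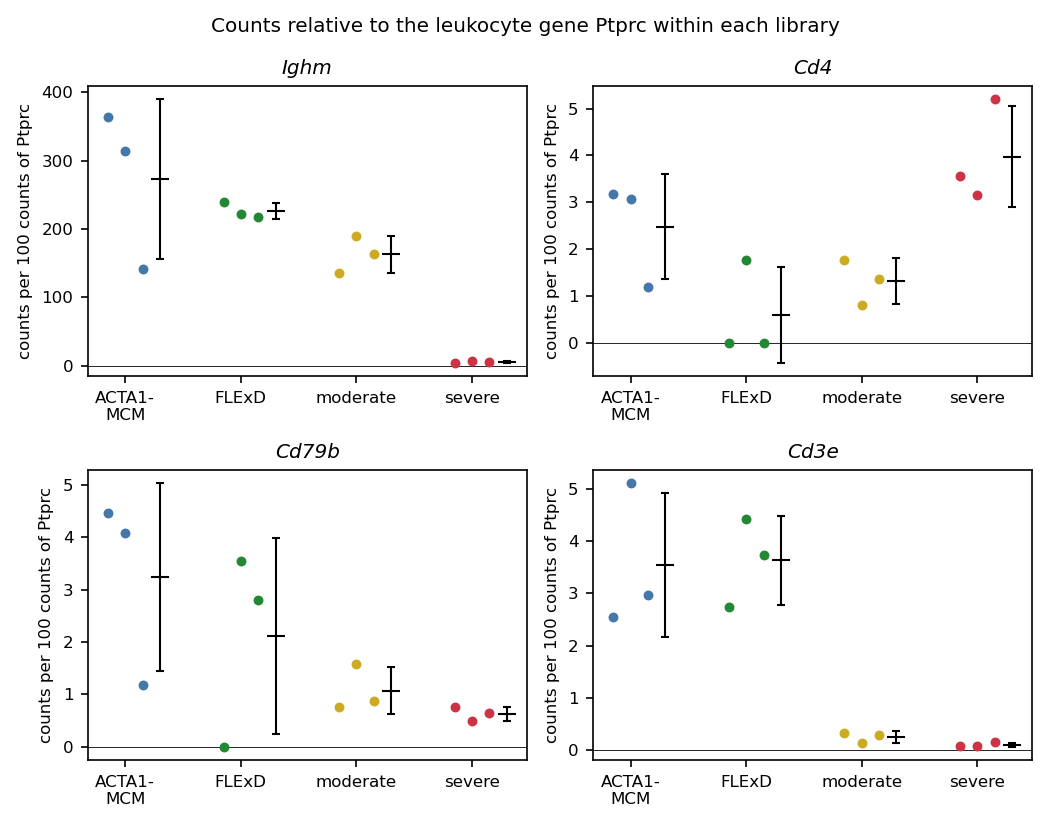
Counts of Ighm, Cd4, Cd79b and Cd3e per 100 counts of Ptprc in the same library (linear vertical axes that differ between panels). Points are the 12 mice, and the black line and bar are the mean and SD of 3 mice. Ighm falls from 135 to 190 in the moderate model to 4.30 to 6.45 in the severe model, and Cd3e is low in both models. The mean of Cd4 is highest in the severe model, whose range (3.15 to 5.20) narrowly overlaps that of controls (1.18 to 3.18).

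The rest of the immunoglobulin machinery was compared with Ighm. The 103 variable and joining segment genes in the table, which in a B cell are joined to Ighm, summed to 0.850 to 5.99 counts in control and FLExD mice, 9.91 to 15.0 in moderate mice and 1.00 to 8.55 in severe mice, beside 132 to 1680 counts of Ighm. Igkc, the kappa light chain constant region with which most mouse heavy chains pair, had 1 to 9 counts in 11 mice and 43 in moderate mouse 1308. Igj, the joining chain of secreted IgM, had at most 7 counts in any mouse. Among the other heavy chain constant genes, Ighg2c was the one with more than single counts. It had 6, 0 and 1 counts in controls, 18.87, 17 and 21.83 in moderate mice and 3, 4 and 5 in severe mice. Its log2 fold change was 2.42 ± 0.64 in the moderate model and −2.70 ± 0.56 between severe and moderate. It amounted to 1.18 to 1.30% of the Ighm counts in moderate mice and 2.04 to 3.79% in severe mice.

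The ratio of count to TPM gives the length of transcript that the quantification assigned to Ighm, relative to other genes. This length was 0.619 to 0.627 of the median of 8259 genes in controls, 0.620 to 0.638 in FLExD mice and 0.613 to 0.623 in moderate mice. In severe mice it was 0.586 to 0.593, below all others. Since the deposited TPM of other genes are above 0 at 0 counts, such an offset would lower this ratio most at low counts. Ighm had its lowest counts in severe mice (132 to 170), and the part of the offset in this value was not tested. The annotated secreted transcript has 87.9% of the length of the membrane transcript. The files do not separate reads of the transcripts shown above, and which of them changed was not tested.

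Lists of further lymphocyte genes were described in the same fit. Of 38 other B cell genes, 32 were in the table and 19 were tested. In the moderate model 13 were called higher and 1 lower (68.4% and 5.26% of those tested, against 24.4% and 17.0% of all genes). In the severe model these were 12 and 1 (63.2% and 5.26%, against 32.9% and 27.9%). Between severe and moderate they were 10 and 3 (52.6% and 15.8%, against 17.6% and 18.8%), the lower share being near that of all genes. Of the 19 genes, 5 had under 10 counts in every control and passed the filter through other groups, so little is read from the counts called higher. Their median log2 fold changes were 1.05, 1.72 and 0.73, where the medians of all genes were 0.04, 0.08 and 0.02. The members that rose include kinases of B cell receptor signalling that myeloid cells also use. Lyn went from 7.73 ± 0.537 CPM in controls to 18.8 ± 3.13 in moderate and 35.8 ± 4.80 in severe mice (adjusted p = 2.8e-06 and 4.2e-09). Syk went from 3.77 ± 1.30 to 18.7 ± 2.73 and 31.1 ± 4.78 CPM (adjusted p = 6.7e-07 and 1.4e-08).

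Genes more restricted to B cells and plasma cells behaved in several ways. The B cell surface receptors Cd22 and Cd72 were higher in both models. Cd22 had 2.60 to 6.64 counts in controls, 31.8 to 48.6 in moderate and 94.0 to 179 in severe mice (log2 fold change 2.64 ± 0.41 and 3.84 ± 0.38). Cd72 had 8.36 to 23.0, 59.7 to 109 and 265 to 373 counts (1.68 ± 0.32 and 3.22 ± 0.30). The signalling adaptor Blnk and the tetraspanin Cd37 rose as well, by 0.92 ± 0.24 and 2.06 ± 0.23 in the moderate and by 1.85 ± 0.23 and 3.00 ± 0.22 in the severe model. Per 100 counts of Ptprc, Cd22 stood at 2.11 to 3.93 in controls, 5.06 to 11.6 in FLExD mice, 4.09 to 4.21 in moderate mice and 3.57 to 5.24 in severe mice. Cd72 stood at 8.53 to 13.6 in controls, 10.3 to 17.9 in FLExD mice, 6.57 to 9.22 in moderate mice and 10.1 to 12.3 in severe mice. By this measure both genes overlapped controls in the severe model, unlike Ighm. In the moderate model Cd72 overlapped controls, while Cd22 was above every control. The control values of Cd22 rest on 2.60 to 6.64 counts per mouse. Other defining B cell genes had few counts in any mouse, with at most 3 for Pax5, 2 for Vpreb3 and 5 for Blk. The surface glycoprotein gene Cd24a, which is also made outside the B lineage, fell in both models (log2 fold change −1.26 ± 0.16 and −2.84 ± 0.17, adjusted p = 2.2e-05 and 6.4e-09). Ebf1, a B lineage transcription factor also found in stromal cells, was at 19.8 ± 1.66, 25.7 ± 3.32 and 22.5 ± 1.33 CPM in controls, moderate and severe mice and was not called. Of the plasma cell genes, Sdc1 rose in both models (0.81 ± 0.18 and 2.01 ± 0.18). Irf4, a transcription factor of plasma cells and activated lymphocytes, rose by 1.05 ± 0.19 in moderate and 0.56 ± 0.19 in severe mice on the log2 scale (adjusted p = 0.0004 and 0.019). Prdm1, which drives plasma cell differentiation, was called in the severe model only (0.14 ± 0.42 and 1.54 ± 0.38 log2); between severe and moderate it was also higher (1.40 ± 0.35, adjusted p = 0.0046).

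Pou2af1, a lymphocyte coactivator of immunoglobulin transcription, shared the order of Ighm between the models. It had 0 counts in all 3 controls and 0, 0 and 1 in FLExD mice. Moderate mice had 74, 38 and 48 counts, and severe mice 17, 29 and 14. Against a floor of 3 counts per control library this was at least 11.8-fold higher in the moderate and at least 3.18-fold higher in the severe model. Between severe and moderate it differed by a log2 fold change of −1.88 ± 0.35 (−1.20 on library size alone), but unlike Ighm it remained above all controls in the severe model. Relative to 100 counts of Ptprc it was 4.66 to 6.25 in moderate and 0.497 to 1.10 in severe mice. Pou2af1, Ighg2c and the T cell surface protein gene Cd6 below were named after their values were seen, for this order, and are therefore described without a test.

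**Figure D3:**
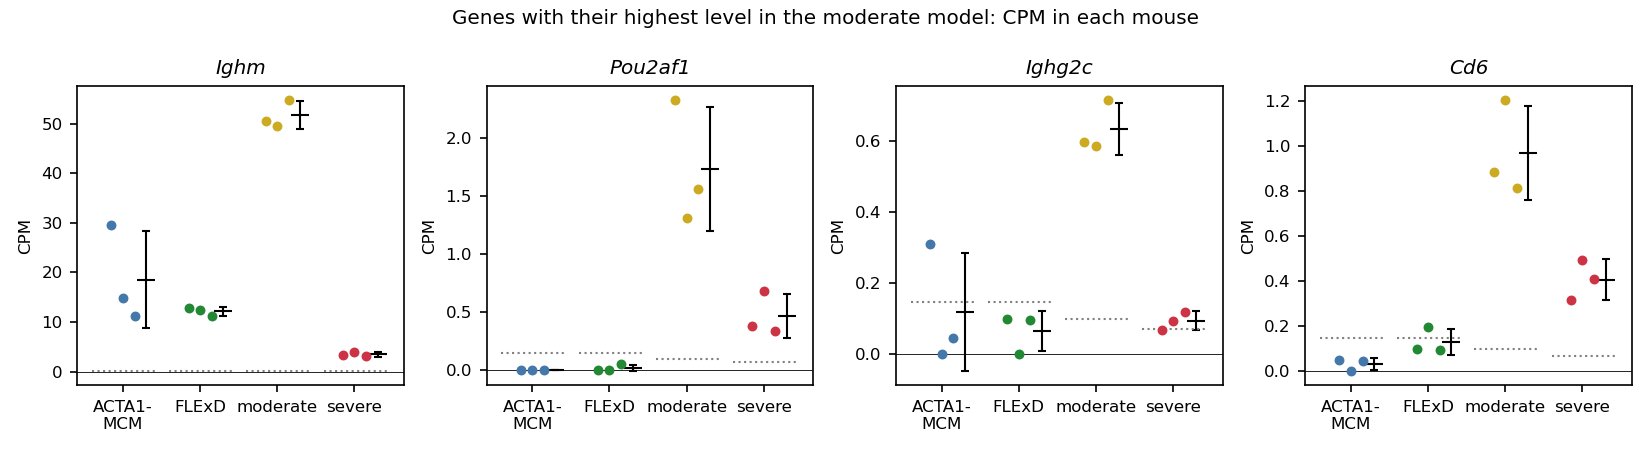
Level in CPM (linear axes that differ between panels) of Ighm, Pou2af1, Ighg2c and Cd6 in the 12 mice, with the mean and SD of 3 mice in black and the mean level of 3 counts dotted. In these genes every moderate mouse is above every mouse of the other groups; in the severe model Ighm is below the controls, while Pou2af1 and Cd6 are above them.

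Of 39 other T cell genes, 21 were tested. In the moderate model 10 were called higher and 2 lower (47.6% and 9.52% of those tested, against 24.4% and 17.0% of all genes), and in the severe model 11 and 3 (52.4% and 14.3%, against 32.9% and 27.9%). Between severe and moderate 4 were called higher and 2 lower (19.0% and 9.52%, against 17.6% and 18.8%), so that the share called higher was near that of all genes. The median log2 fold changes were 0.79, 0.99 and 0.33. Of the 21 genes, 10 had under 10 counts in every control and passed the filter through other groups. The lower calls depended on the scaling, and none of them was made on library size alone. Il7r, the interleukin-7 receptor, had 2.24 to 7.26 counts in controls, 84.8 to 108 in moderate and 216 to 357 in severe mice (log2 fold change 3.71 ± 0.32 and 4.68 ± 0.30). Lcp2, a signalling adaptor of T cells and myeloid cells, had 9 to 20, 86 to 150 and 292 to 323 counts (2.39 ± 0.27 and 3.38 ± 0.26). Cd44, an adhesion receptor made by many cells, rose by 2.49 ± 0.16 and 3.55 ± 0.17. Fyn and Thy1, which are not limited to T cells, rose by 0.77 ± 0.12 and 0.89 ± 0.28 in the moderate model and 1.10 ± 0.12 and 0.99 ± 0.27 in the severe model.

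Genes more specific to T cells went both ways at low counts. Tcf7, a T cell transcription factor, had 4 to 9 counts in controls, 15 to 22 in moderate and 67 to 116 in severe mice, and its log2 fold change was 0.79 ± 0.40 (not called), 2.56 ± 0.35 in the severe model and 1.78 ± 0.30 between severe and moderate. The T cell receptor kinases Zap70 and Lck had at most 3 counts in controls, 1 to 14 in moderate and 10 to 23 in severe mice. Zap70 was called in both models (1.47 ± 0.48 and 1.80 ± 0.45), while Lck was called in the severe model (2.10 ± 0.79) and not in the moderate model (1.60 ± 0.87), where on library size alone it was called. The adhesion receptor Cd2 was called in the moderate model (1.61 ± 0.44) and not in the severe model (0.87 ± 0.45), where on library size alone it was called. The co-stimulatory receptor Cd28 and the receptor zeta chain Cd247 were called lower in the moderate model (−1.33 ± 0.39 and −0.97 ± 0.23) and the severe model (−1.53 ± 0.38 and −1.33 ± 0.23), but neither was called on library size alone. Other T cell genes were near the floor. Cd3d and Cd8b1 had at most 4 and 3 counts in any mouse, Cd5 at most 5, and the receptor constant genes Trac, Trbc1 and Trbc2 at most 7, 9.36 and 9.64, the last 3 in severe mice. Foxp3, which marks regulatory T cells, had 8.01 to 15.9 counts in controls, 4.06 to 13.3 in moderate and 13.9 to 21.5 in severe mice and was not called. Il2ra was not called either (−0.09 ± 0.21 and −0.31 ± 0.20). Cd6 had 1, 0 and 1 counts in controls, 28, 35 and 25 in moderate mice and 14, 21 and 17 in severe mice. Its log2 fold change between severe and moderate was −1.24 ± 0.31, and −0.55 on library size alone.

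Of 14 other NK and cytotoxic genes, 7 were tested. All 7 had under 10 counts in every control and passed the filter through the model mice, so that higher calls were favoured and lower calls hardly possible. In the moderate model 5 were called higher and in the severe model 7, with 0 lower in both, and 1 was called higher between severe and moderate. Of all genes, 24.4%, 32.9% and 17.6% were called higher in these comparisons. The counts of this list are a description. The medians were 2.77, 3.06 and 0.31 on the log2 scale, at levels near the floor in controls. Klrk1, the activating receptor NKG2D, had 0 to 3 counts in controls, 13 to 34 in moderate and 36 to 41 in severe mice (log2 fold change 3.39 ± 0.61 and 3.70 ± 0.58). Ctsw, a cathepsin of cytotoxic cells, had 0 to 3, 13 to 16 and 15 to 30 counts (2.77 ± 0.66 and 2.89 ± 0.63). Eomes, a transcription factor of NK and memory T cells, had at most 1.01 counts in controls, 2.01 to 5.02 in moderate and 18.1 to 27.2 in severe mice (2.37 ± 0.49 between severe and moderate). Gzma was called in the severe model, with 1 to 4 counts in controls and 12 to 18 in severe mice (1.80 ± 0.54). In FLExD muscle 0 genes of the B, T and NK lists were called by edgeR, DESeq2 or limma, with 1, 1 and 0 at an unadjusted p under 0.05.

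**Figure D4:**
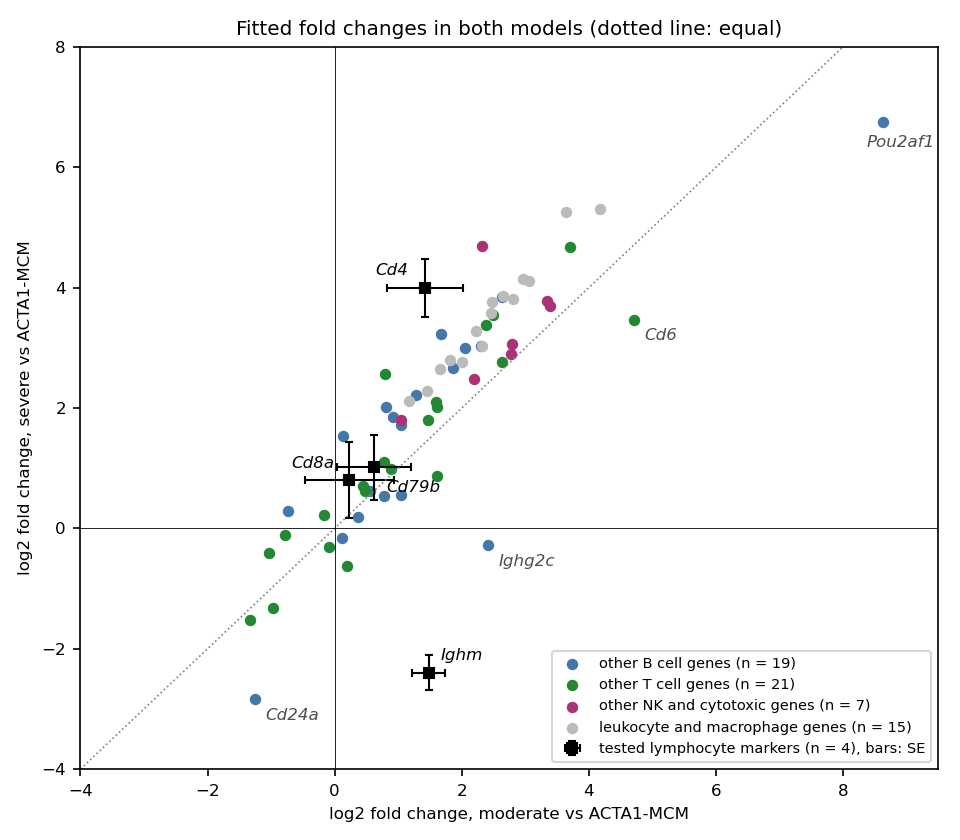
Fitted log2 fold change against controls in the moderate model (horizontal) and the severe model (vertical) for the 4 tested lymphocyte markers (black squares, bars are SE) and for the tested genes of the fixed lists (circles). Most list genes lie near or above the dotted line of equal change, Ighm lies at 1.48 and −2.40, and Cd4 at 1.42 and 3.996; the position of Pou2af1 depends on the prior count, since its controls are at 0.

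Markers of other cells moved with these groups. All 7 leukocyte genes and all 8 macrophage genes tested were called higher in both models, and also between severe and moderate. Of all tested genes, 24.4% (moderate), 32.9% (severe) and 17.6% (severe against moderate) were called higher. The summed level of the macrophage genes was 101 to 124 CPM in controls, 97.9 to 115 in FLExD mice, 444 to 558 in moderate mice and 1014 to 1068 in severe mice. Genes of red cells, such as those of haemoglobin, went the other way, with 0 called higher and 1, 5 and 5 of 5 called lower in these comparisons (against 17.0%, 27.9% and 18.8% of all genes called lower). Their summed level was 386 to 463 CPM in controls, 316 to 338 in FLExD mice, 186 to 360 in moderate mice and 34.0 to 84.4 in severe mice.

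Lymph node genes summed to 4.80 to 10.3 CPM per mouse, and the chemokine gene Ccl21a, which has near-identical copies that share reads, had 72.3 to 176 counts. Cxcl13, a chemoattractant of B cells, had 0 to 1 counts in controls, 0 to 4 in FLExD mice, 11 to 33 in moderate and 44 to 84 in severe mice. Its log2 fold change was 5.10 ± 0.96 and 6.21 ± 0.84, and it was called higher in both models and between them (1.11 ± 0.41). Glycam1 had a mean of 0.0316 CPM in controls and 0 in the other groups, and Madcam1 at most 0.0463 CPM. Of 4 lymph node genes tested, 2, 1 and 1 were called higher and 0, 1 and 1 lower. Of 5 neutrophil genes, 2, 4 and 3 were called higher, and of 6 dendritic cell genes 3, 2 and 2 were called higher and 1, 0 and 1 lower. Of all tested genes, 24.4%, 32.9% and 17.6% were called higher and 17.0%, 27.9% and 18.8% lower in these comparisons. Nothing is read from the calls of these 3 short lists. Skeletal muscle genes fell, with 7, 8 and 8 of 8 called lower. The part of these cells in the level of Ighm or Cd4 was not tested.

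Likeness to Ighm was measured as Pearson's r of log2 CPM over the 12 mice among 16678 genes, as a description. The 5 most alike were Sppl2b (0.946), Dtd1 (0.943), Rab21 (0.942), Tbc1d4 (0.939) and Hlcs (0.937), none of which is a lymphocyte marker. They ran over a much narrower range than Ighm, for Dtd1 from 6.92 ± 0.944 CPM (SD, n = 3) in severe to 13.2 in moderate mice. On library size alone 0 of these 5 were among the 5 most alike. Their r was then 0.160 (Sppl2b), 0.497 (Dtd1), 0.236 (Rab21), 0.648 (Tbc1d4) and 0.247 (Hlcs), so the high values depended on the TMM factors. The other tested markers were unlike Ighm, with r of −0.06 for Cd79b, −0.32 for Cd8a and −0.44 for Cd4, and Pou2af1 stood at 0.27. All these values rest on 4 groups of 3 mice, which share the group differences.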

How the data were processed

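The authors mapped trimmed single-end 50-base reads with RSEM 1.2.4 (calling Bowtie) to a merged UCSC, Ensembl and MISO annotation of mm10 and remaining reads with TopHat2 2.0.8b, and deposited expected counts per gene, not normalized, and TPM, for 37748 genes in 12 mice. TPM keep no depth and are above 0 in 164142 of 164417 entries with 0 counts.

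Expected counts were rounded and tested in 1 fit of 4 groups with edgeR 4.0.16 under R 4.3.3 (filterByExpr, TMM, quasi-likelihood F-test with robust dispersion), with Benjamini-Hochberg adjustment over 16679 genes. Calls required an adjusted p below 0.05 with a log2 fold change of 0.5 or more in size, the study's fold threshold. SE came from the F statistic. CPM use TMM-adjusted library sizes, and log2 CPM a prior count of 2. Ratios of genes not tested have 95% exact intervals on summed counts, for counting error only. Exact permutation tests used scipy 1.17.1 on CPM. The edgeR tests set differences between groups against the spread between mice within groups. The labels name mice but not litters or batches, so a litter or batch that differed between groups cannot be told apart from the group. The tests were tried on simulated counts. Positions and transcripts were read from GENCODE M21 (GRCm38), where 35982 identifiers matched. Figures used matplotlib 3.10.9.

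The genes and lists were chosen with earlier results of these data known. Named are the 9 genes, Ptprc, genes among the 4 with the highest mean CPM of each list, the 5 most like Ighm, Wfdc3 and Esr1; defining markers with few counts, Pou2af1, Ighg2c, Cd6, Cd22, Cd72, Blnk, Cd37, Tcf7, Zap70, Lck, Cd2, Cd28 and Cd247 were added after their values were seen. Alternatives were library size alone, median-of-ratios factors, DESeq2 1.42.0, limma 3.58.1 on log2(TPM + 1), no filter, at least 10 counts in every library, only the 2 groups compared, a log2 fold change of at least 1, no fold threshold, and each mouse left out. Symbols Ighd, Igha and Mzb1 were not analysed here.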

Additional observations from a re-analysis of the deposited data

Results flagged for a closer look

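Ighm differed between the moderate and severe models, with a log2 fold change of −3.88 ± 0.30 (SE) between severe and moderate muscle. Every moderate mouse (49.5 to 54.8 CPM) was above every control (11.3 to 29.6 CPM) and every severe mouse (3.19 to 4.01 CPM) below. The gene was chosen on this contrast, so the difference is a description and was not tested.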

How the results depend on the processing

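Over 21 alternatives Ighm kept its direction and its calls in both models and between them, and 0 of the 9 genes was called in FLExD muscle. Library size alone moves the median of all genes to as much as 1.39 on the log2 scale. With it 2 of the 9 genes were called higher in the moderate model (Ighm and Cd4) and 3 in the severe model (Cd4, Cd79b and Cd8a). Between severe and moderate 2 were called higher (Cd4 and Cd79b). This setting called 9516, 13650 and 10471 of all 16679 genes in either direction in these comparisons, so nothing is read from these counts. With limma on log2(TPM + 1) 2 were called higher in the severe model, where 11674 of all genes were called in either direction. Without a filter 2 were called lower in the severe model, the other being Cd3e (log2 fold change −1.55). With at least 10 counts in every library Cd4 was not tested, and 0 were called higher in the severe model and between severe and moderate. Leaving out 1 mouse gave 1 to 2 called higher in the moderate model (2 without moderate mouse 1308, by Cd4) and 1 to 2 in the severe model (2 without control mouse 1246, by Cd8a). Cd8a changed sign without single mice, running from −1.37 to 0.60 in FLExD muscle (0.60 without control mouse 1246) and from −0.34 to 1.56 in the moderate model (−0.34 without control mouse 1127 and −0.01 without moderate mouse 1331).

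For the other B cell genes, between severe and moderate, 4 were called higher at a log2 fold change of at least 1, and 1 lower with at least 10 counts. For the other T cell genes, library size alone called 18 higher in the severe model and 11 between severe and moderate, and 0 lower in the moderate model, the severe model and between them. In these 2 comparisons that setting called 13650 and 10471 of all 16679 genes in either direction. The medians of all genes stood at 1.39 and 0.72, so nothing is read from these counts. limma called 7 higher between severe and moderate and 0 lower in each. At least 10 counts in every library left 3 higher and 1 lower in the moderate model, 3 higher in the severe model, and 1 higher and 1 lower between severe and moderate. A log2 fold change of at least 1 left 2 higher and 1 lower between severe and moderate, and 1 lower in the moderate model. Without single mice, 1 to 2 were lower in the moderate model (1 without control mouse 1349). For the NK and cytotoxic genes, 0 were called higher in the moderate model by limma or with at least 10 counts and 2 with only the 2 groups compared; with at least 10 counts 0 were called in the severe model and between severe and moderate, and library size alone called 3 there. Leaving out mice gave 2 to 5 in the moderate model, with 3 without control mouse 1127 or 1246 or moderate mouse 1236 and 2 without moderate mouse 1331. The cause of these changes was not tested, other than that fewer genes are tested with at least 10 counts. At 0 to 9 counts per mouse, 5 of the 9 genes cannot show a moderate change at this depth. No paired analysis was possible because the groups share no replicate numbers.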
